A study of Sorghum bicolor with 12 samples.

Results

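In sorghum roots, 36 of the 20818 genes counted set NIL-bri1-72, a line with a changed brassinosteroid receptor, apart from its companion line NIL-WT-72 in drought and again in water, always in the same direction. They are 0.173% of the genes counted. NIL-bri1-72 had higher levels for 17 of them (0.0817% of all genes) and lower levels for 19 (0.0913%). A gene was taken when all 3 NIL-bri1-72 libraries of a water regime lay on one side of all 3 NIL-WT-72 libraries, on the same side in both regimes, with a mean difference of 0.4 or more in each. The scale was log2(CPM + 0.5), where CPM is the read count scaled to a library total of 1000000. All 12 libraries entered this choice, so the line differences given here describe the chosen genes and are not tested.

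NIL-bri1-72 and NIL-WT-72 come from a backcrossed family made by EMS, a chemical that scatters base changes over the genome. NIL-bri1-72 carries a base change in the part of the brassinosteroid receptor SbBRI1 that lies outside the cell, and NIL-WT-72 lacks it. The submitters state that they assumed the lines to be near-isogenic, and with 1 line per genotype the receptor change and other base changes of the family cannot be told apart. Groups of 3 libraries each were made from roots of mature plants: NIL-bri1-72 in drought, held at 30% of field capacity, NIL-WT-72 in the same drought, NIL-bri1-72 watered and NIL-WT-72 watered. The labels do not say how many plants went into a library.

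Brassinosteroids are steroid hormones of plants. BRI1 is a receptor kinase at the cell surface that binds them, and the signal passes to transcription factors of the BES1 and BZR1 family, which switch many growth and stress genes on or off. In Arabidopsis roots this pathway acts on cell division, elongation and the response to dry soil. The genes described here are those at which the genotypes differed whether or not water was withheld. The count table gives identifiers without gene names, and 0 of its identifiers matched the RefSeq gene table of sorghum used here. Members are therefore given by identifier, and no function is assigned to any of them.

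Library totals ran from 18640601 to 33296273 counts, and no gene was below 8 counts in any library, so genes silent in 1 line are not analysed here. One NIL-WT-72 library stood apart, water replicate 1, at 61.8 on the second principal component (18.9% of the variance). NIL-WT-72 drought replicate 3 was next at 23.2, and the other 10 libraries lay between -19.4 and 0.634. Root markers could not be checked against the label, because no identifier carries a name, and in whole roots fewer cells of a type and less RNA per cell cannot be told apart.

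The members at higher levels in NIL-bri1-72 differed by modest amounts. Their differences on the log2(CPM + 0.5) scale ran from 0.41 to 1.07 in drought (median 0.54) and from 0.42 to 1.31 in water (median 0.62), and 1 gene with a mean of 2.84 CPM holds the highest value in both. The difference, which the rule used, was larger in drought for 5 of the 17 and larger in water for 12. Among those with at least 10 CPM in 1 group, Sobic.006G267900 on chromosome 6 ranked first by the smaller of its differences. In drought it had 26.1, 17.9 and 22.5 CPM in NIL-bri1-72, against 16.1, 12.8 and 12.5 CPM in NIL-WT-72. When watered, it had 23.4, 22.3 and 12.4 CPM in NIL-bri1-72, against 10.1, 11.1 and 9.15 CPM in NIL-WT-72. Watered NIL-bri1-72 replicate 3 thus lay close to the NIL-WT-72 libraries while its 2 companions were about as high as in drought. The mean differences were 0.66 in drought and 0.86 in water, or 1.14 in water without that library.

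Sobic.003G408200 on chromosome 3 was next, and the size of its water difference leaned on 1 library. In drought it had 10.2, 8.95 and 11.1 CPM in NIL-bri1-72, against 5.51, 7.09 and 7.93 CPM in NIL-WT-72. The watered values were 23.6, 27.0 and 22.2 CPM in NIL-bri1-72, against 4.51, 20.3 and 16.2 CPM in NIL-WT-72. The lowest value, 4.51 CPM, belongs to watered NIL-WT-72 replicate 1, the library that stood apart. The mean difference of the gene was 0.54 in drought and 1.04 in water, and 0.41 in water without that library, just inside the limit of 0.4. Without droughted NIL-WT-72 replicate 1 its drought difference was 0.3999, just short of the limit.

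The differences of the 19 members at lower levels in NIL-bri1-72 ran from -1.20 to -0.50 in drought (median -0.78) and from -1.61 to -0.40 in water (median -0.68). Without droughted NIL-WT-72 replicate 3 the drought median was -0.53, and that of the higher members was 0.47. Without watered NIL-WT-72 replicate 1 the water medians were -0.68 for the lower and 0.51 for the higher members. Here the difference was larger in size in drought for 11 genes and larger in water for 8. As with the higher members, this split counts values that the rule used, and nothing about the regimes is read from it. A size of at least 1, a 2-fold change on this scale, was reached in both regimes by 4 of the lower members and by 1 of the higher ones.

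Sobic.001G377300 on chromosome 1 ranked first among the lower members with at least 10 CPM in 1 group. In drought it had 29.6, 18.6 and 27.7 CPM in NIL-bri1-72, against 32.4, 90.6 and 64.8 CPM in NIL-WT-72. When watered, it had 7.87, 9.35 and 17.1 CPM in NIL-bri1-72, against 19.3, 34.1 and 22.6 CPM in NIL-WT-72. The lines were about equally far apart in both regimes, at -1.20 in drought and -1.15 in water. The droughted NIL-WT-72 libraries were spread widely (62.6 ± 29.1 CPM, SD, n = 3), and without their replicate 2 the drought difference was -0.87. The droughted NIL-bri1-72 mean, 25.3 ± 5.89 CPM, equalled the watered NIL-WT-72 mean, 25.3 ± 7.79 CPM (SD, n = 3 each).

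Sobic.004G282900 on chromosome 4 was the second. In drought it had 33.1, 82.2 and 80.8 CPM in NIL-bri1-72, against 138.1, 86.2 and 176.3 CPM in NIL-WT-72. When watered, it had 21.6, 31.8 and 23.6 CPM in NIL-bri1-72, against 64.8, 51.5 and 88.2 CPM in NIL-WT-72. The lines were clearly apart in water, whereas in drought the highest NIL-bri1-72 library and the lowest NIL-WT-72 library were close, at 82.2 and 86.2 CPM. The mean differences were -1.08 in drought and -1.38 in water. Without droughted NIL-bri1-72 replicate 1, which was low, the drought difference was -0.65, and without droughted NIL-WT-72 replicate 3, which was high, it was -0.85.

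**Figure D1:**
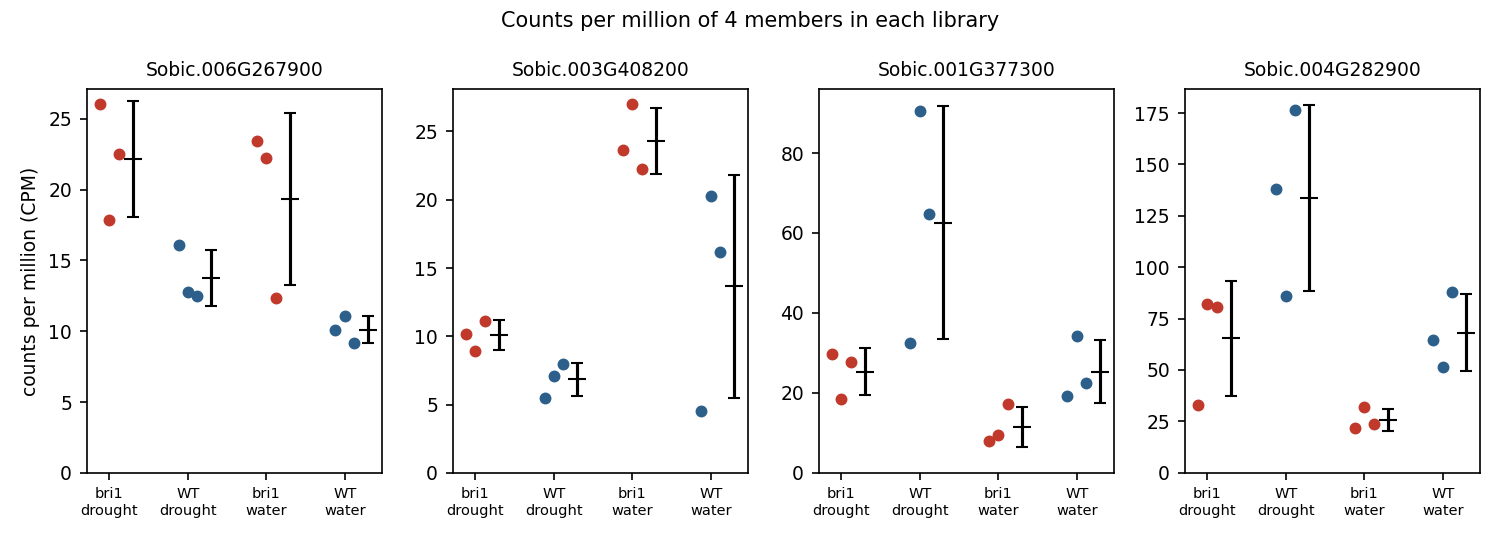
CPM in each library for the 2 highest-ranked members in each direction among those with at least 10 CPM in 1 group, as points by group (red, NIL-bri1-72; blue, NIL-WT-72), with the mean and SD of 3 libraries as a black bar beside them. In each regime the NIL-bri1-72 points lie wholly above (Sobic.006G267900, Sobic.003G408200) or wholly below (Sobic.001G377300, Sobic.004G282900) the NIL-WT-72 points, as the choice of genes requires.

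How cleanly the lines were parted differed among the members. The gap between the nearest libraries of the lines was under 0.1 on the log2 scale in at least 1 regime for 19 of the 36 members. It was at least 0.3 in both regimes for 1 member, Sobic.007G154300 on chromosome 7, at 0.74 in drought and 0.59 in water. This gene had 5.25, 4.18 and 5.45 CPM in NIL-bri1-72 in drought, against 9.43, 9.77 and 14.2 CPM in NIL-WT-72. When watered, it had 1.98, 2.20 and 2.99 CPM in NIL-bri1-72, against 6.52, 7.19 and 4.75 CPM in NIL-WT-72. Its counts were 56 to 175 in NIL-bri1-72 libraries and 110 to 379 in NIL-WT-72 libraries, the lowest being in water. The mean differences were -1.07 in drought, or -0.89 without droughted NIL-WT-72 replicate 3, and -1.20 in water, or -1.15 without watered NIL-WT-72 replicate 1.

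The limit of 0.4 divides genes that are close to each other. Just inside it, Sobic.001G410600 was higher in NIL-bri1-72 by 0.41 in drought and 0.42 in water, and just outside, Sobic.003G156766 differed by 0.38 and 0.42. At its low counts the first moved with the pseudocount, to 0.22 in drought and 0.19 in water with 2 CPM and to 0.53 and 0.64 with 0.1 CPM. On the lower side, Sobic.001G263300 differed by -0.64 in drought and -0.40 in water and was kept, while Sobic.010G127100 at -0.41 and -0.39 was not. Without watered NIL-WT-72 replicate 1 the water difference of the kept gene was -0.24, short of the limit, and that of the other was -0.46. In all, 148 genes (0.711%) had non-overlapping lines on the same side in both regimes, and 112 of them fell short of the limit.

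**Figure D2:**
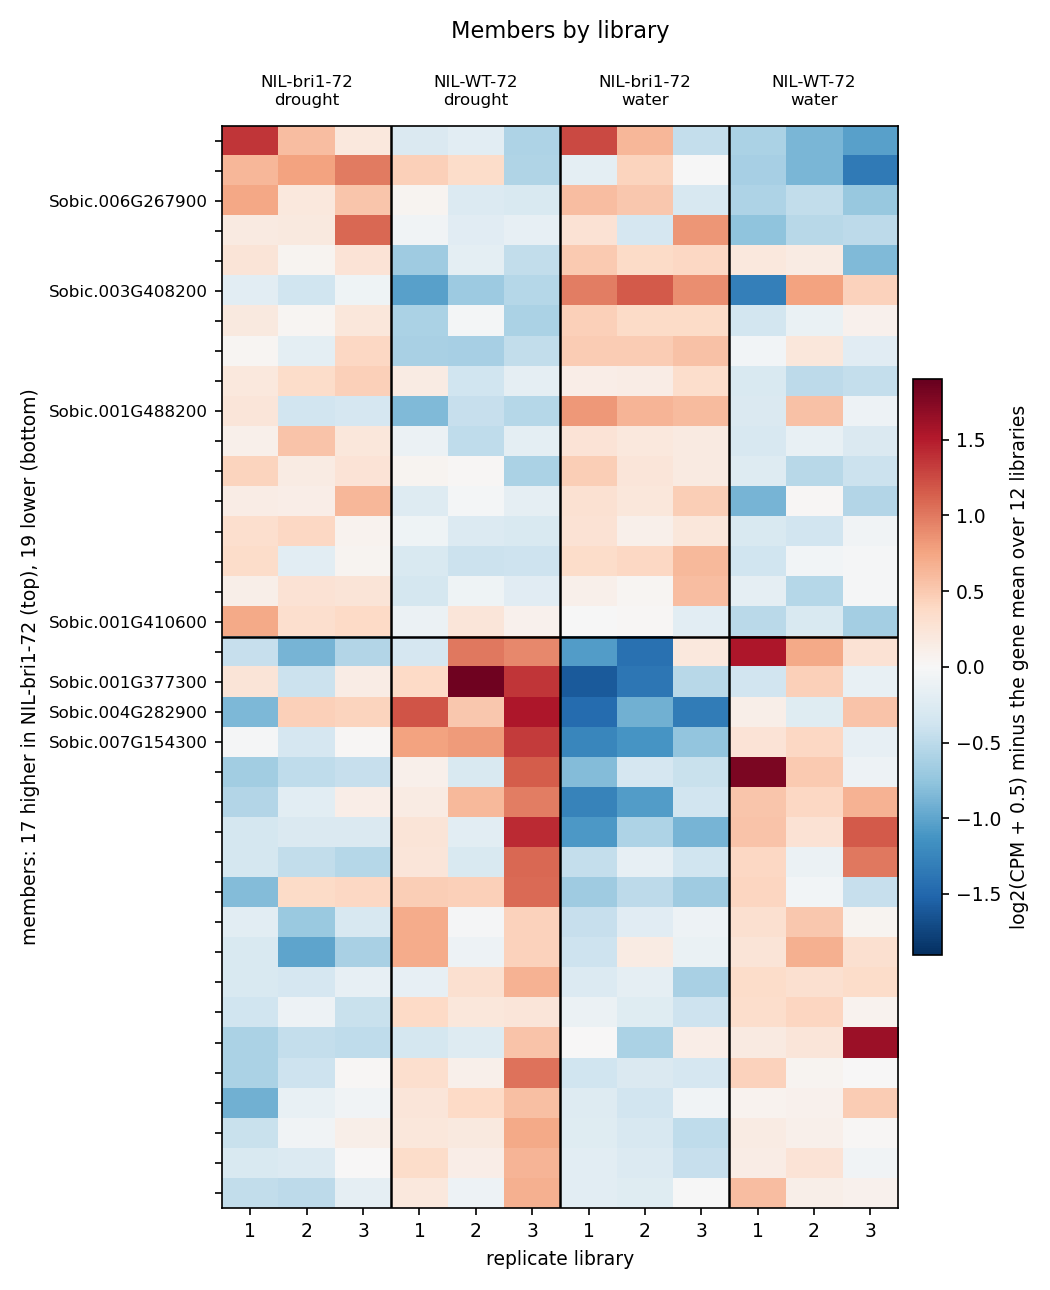
Level of each of the 36 members (rows) in each of the 12 libraries (columns), as log2(CPM + 0.5) minus the gene's mean over all libraries, red above and blue below it. Rows are sorted by the smaller of the line differences, 17 higher members on top and 19 lower ones below, and the column of droughted NIL-WT-72 replicate 3 is the deepest red among the lower members.

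One library carried more of the lower members' difference than any other. Droughted NIL-WT-72 replicate 3 lay on average 0.885 above the gene means of the 19 lower members, whereas its companions lay 0.31 and 0.28 above. It was the droughted NIL-WT-72 library farthest from NIL-bri1-72 for 14 of the 19. Among the 17 higher members it was the farthest for 5, and the 3 droughted NIL-WT-72 libraries lay 0.27, 0.22 and 0.36 below the gene means. Watered NIL-WT-72 replicate 1 lay 0.42 above for the lower members, against 0.27 and 0.30 for its companions. With both libraries left out, 27 of the 36 members still met the rule, 16 of the higher and 11 of the lower ones. The part of these libraries in the choice of the other 9 was not tested. No member can change sign when libraries are left out, since the rule demands that the lines do not overlap. Among the lower members, 5 of the 19 fell short of the limit in water without the watered library, and 4 of the 19 in drought without the droughted one.

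Leaving out any 1 library kept between 30 and 35 of the 36 members. Droughted NIL-bri1-72 replicate 1 was the one whose loss removed the most. The rule re-applied to 11 libraries always found more genes. Lines that part with 3 libraries each still part when 1 is left out, whereas the mean difference can move either way. It found 94 without droughted NIL-bri1-72 replicate 2, 92 without droughted NIL-WT-72 replicate 2 and 77 without watered NIL-bri1-72 replicate 3. It found 66 without droughted NIL-bri1-72 replicate 1, droughted NIL-WT-72 replicate 1 or watered NIL-WT-72 replicate 2, and 57 without droughted NIL-bri1-72 replicate 3. The remaining 5 gave 38 to 51. Random thinning of all libraries to the smallest total, which adds counting noise, kept 28 of the 36.

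The regimes share no library and can be set against each other. They are not shown to be independent, since deviations of same-numbered libraries of 1 line correlated across regimes, as given below. The drought part of the rule alone was met by 104 genes higher in NIL-bri1-72 (0.50%) and by 220 lower (1.06%). Its water part was met by 475 higher (2.28%) and by 232 lower (1.11%). Of the 475 genes higher in water, 17 (3.58%) were also higher in drought and 0 were lower. Of the 232 lower in water, 19 (8.19%) were also lower in drought and 0 were higher. Genes meeting both parts thus pointed the same way in all 36 cases. With no size limit, the lines parted in both regimes on the same side for 148 genes and on opposite sides for 14. The 148 include the 36 members, and the other 112 fell short of the limit.

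With all 12 libraries, genes chosen in one regime leaned the same way in the other. Of the genes chosen as lower in water, 92.2% were also lower on average in drought, where 54.1% of all genes were. Their median difference in drought was -0.27, against -0.01 over all genes. For those chosen as higher in water, 71.6% were higher in drought, against 45.9% of all genes, with a median of 0.11. Those chosen in drought as higher were also higher in water in 83.7% of cases, against 51.9% of all genes, and those chosen as lower were lower in 78.6%, against 48.1%. Without the members, whose sign the rule fixes, the shares were 91.5% and 70.5% for the genes chosen in water as lower and as higher, and 80.5% and 76.6% for those chosen in drought as higher and as lower.

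This leaning was weaker with both libraries that stood apart left out. With both left out, 57.0% of the genes then chosen as lower in water were lower in drought, against 51.8% of all genes, and 45.1% of those chosen as higher were higher, against 48.2%. Of the genes chosen in drought, 59.5% of the higher ones were higher in water, against 49.7% of all genes, and 50.5% of the lower ones were lower, against 50.3%. Without droughted NIL-WT-72 replicate 3 alone, the shares of genes chosen in water were 68.5% for lower and 53.7% for higher, and those of genes chosen in drought 62.4% for higher and 59.9% for lower. Without watered NIL-WT-72 replicate 1 alone, they were 83.6%, 58.3%, 83.7% and 67.3% in the same order. Leaving out libraries also changed the genes chosen. With both out, those chosen in water went from 475 to 861 for higher and from 232 to 605 for lower. These shares were not computed without any other library, so whether the weakening is particular to these libraries was not tested.

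The count of genes that met both parts moved too. With watered NIL-WT-72 replicate 1 and droughted NIL-WT-72 replicate 3 left out, 57 genes met both parts in the same direction and 34 in opposite directions. Without the first alone the counts were 51 and 9, and without the second alone 38 and 9. Over the 12 single libraries the opposite count ran from 1 to 12, the highest without droughted NIL-bri1-72 replicate 1, where 66 genes pointed the same way. Deviations of same-numbered libraries of 1 line also correlated across regimes. Over all genes their deviations from the group means correlated with Pearson r between 0.125 and 0.360 in NIL-bri1-72 and between 0.0940 and 0.270 in NIL-WT-72. Between the lines, same-numbered libraries gave r from -0.330 to 0.0998 in drought and from -0.0505 to 0.0853 in water. Differently numbered libraries were not compared. The labels do not say what the numbers share. Whether the same number marks a shared deviation, and its part in these counts, was not tested.

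**Figure D3:**
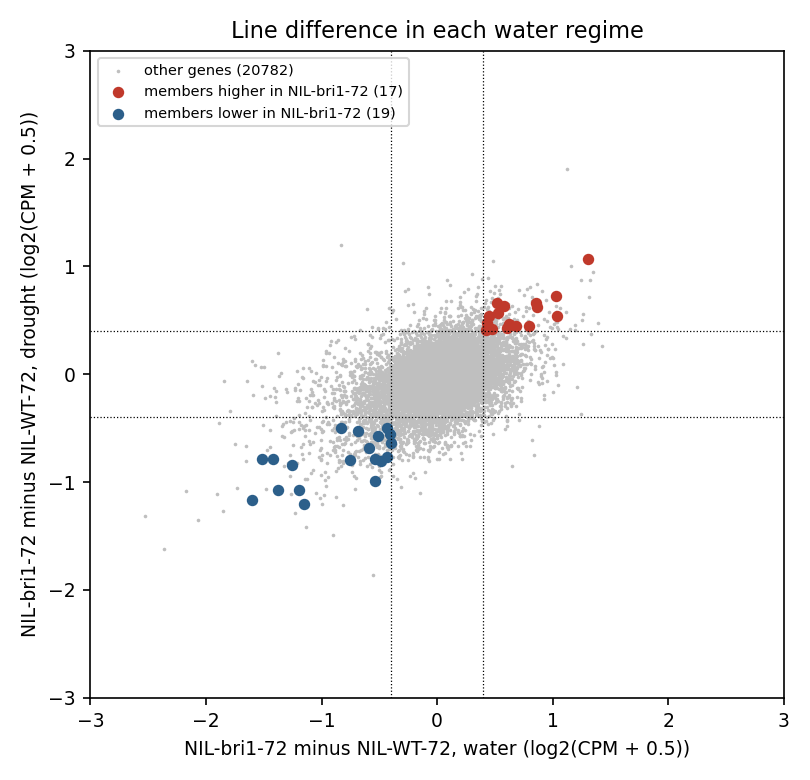
Mean difference NIL-bri1-72 minus NIL-WT-72 on the log2(CPM + 0.5) scale in water (x) and in drought (y) for all 20818 genes, each a point, with dotted lines at 0.4 and -0.4. The 17 higher members (red) fill the upper right corner and the 19 lower ones (blue) the lower left, and grey points in the same corners are genes whose libraries overlapped in at least 1 regime.

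As background, the edgeR quasi-likelihood test of the line difference averaged over both regimes called 0 of 20818 genes (0.00%) at a Benjamini-Hochberg adjusted p below 0.05. Unadjusted, 1351 genes (6.49%) were below 0.05. DESeq2 called 32 genes (0.154%), which include 18 of the 36 members, and limma voom called 0. Since the members were chosen on this contrast, nothing further is read from their place in it.

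Response to drought, averaged over the lines, was not used in choosing the members. The demand that the lines not overlap does bear on the spread within groups, and the drought test uses that spread in the same 12 libraries. Its part in the members' share of low p was not tested. By the edgeR quasi-likelihood test 3 of the 36 passed, 2 that rose and 1 that fell, against 1.28% of all genes called (0.524% higher and 0.754% lower). The averaged log2 fold changes of the members ran from -1.12 to 1.23, with a median of 0.05 against 0.00 over all genes, and 21 were positive and 15 negative. Of the higher members 10 were positive and 7 negative, and of the lower members 11 were positive and 8 negative, and whether these splits differ was not tested. An unadjusted p below 0.05 was found for 12 of the 36, against 14.9% of all genes, and a size of 0.5 or more in 27.8% of the members, against 9.12%.

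Sobic.007G154300, the most cleanly parted member, rose in drought. In NIL-bri1-72 its levels averaged 4.96 ± 0.682 CPM in drought, against 2.39 ± 0.531 CPM in water (SD, n = 3 each). In NIL-WT-72 they averaged 11.1 ± 2.65 CPM in drought, against 6.15 ± 1.26 CPM in water (SD, n = 3 each). All droughted libraries of each line lay above its watered ones. Averaged over the lines, drought changed it by 0.96 ± 0.16 (log2 fold change ± SE), at an adjusted p of 0.0227 by edgeR, with 1.07 in NIL-bri1-72 and 0.85 in NIL-WT-72. It is lower in NIL-bri1-72 in both regimes, so the droughted NIL-bri1-72 level came near the watered NIL-WT-72 level. The adjusted p was 0.0668 and 0.0605 without watered NIL-bri1-72 replicates 1 and 2 and 0.0695 without droughted replicate 3 of that line. It was 0.0577 and 0.0590 without droughted NIL-WT-72 replicates 1 and 2.

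Sobic.001G410600, a higher member at low counts, also rose. In NIL-bri1-72 it had 1.92, 1.33 and 1.40 CPM in drought, against 0.961, 0.982 and 0.778 CPM in water. In NIL-WT-72 it had 0.851, 1.23 and 1.05 CPM in drought, against 0.531, 0.697 and 0.432 CPM in water. All droughted libraries of each line lay above its watered ones. These are between 10 and 49 counts per library. Averaged over the lines, drought changed it by 0.84 ± 0.18 (log2 fold change ± SE), at an adjusted p of 0.0462 by edgeR, and the call was lost under 15 of 19 alternatives, with an adjusted p of up to 0.129. Among the 12 fits that left out 1 library it held only without droughted NIL-bri1-72 replicate 1.

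The member that fell was Sobic.001G488200, a higher member and the one with the highest mean CPM. In NIL-bri1-72 it had 168.6, 111.5 and 114.2 CPM in drought, against 253.0, 225.2 and 217.7 CPM in water. In NIL-WT-72 it had 80.3, 106.0 and 98.0 CPM in drought, against 118.6, 210.6 and 134.3 CPM in water. Droughted libraries lay below watered ones in each line. Averaged over the lines, drought changed it by -0.76 ± 0.14 (log2 fold change ± SE), at an adjusted p of 0.0330 by edgeR, with -0.81 in NIL-bri1-72 and -0.71 in NIL-WT-72. The call was lost in 8 of the 12 fits that left out 1 library, at adjusted p between 0.0511 and 0.102, and held without droughted NIL-bri1-72 replicate 1, watered NIL-WT-72 replicates 1 and 2 and droughted NIL-WT-72 replicate 3.

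Sobic.003G408200 had the second lowest p among members with a negative drought estimate and did not pass. Its estimate was -1.12 ± 0.27 (log2 fold change ± SE), at an adjusted p of 0.0820 by edgeR. It passed without watered NIL-WT-72 replicate 1, at -1.33 with an edgeR adjusted p of 0.00199. The highest-ranked lower members with at least 10 CPM in 1 group had estimates of 1.23 ± 0.26 for Sobic.001G377300 and 1.17 ± 0.26 for Sobic.004G282900 (log2 fold change ± SE). Their adjusted p by edgeR, 0.0533 and 0.0595, missed the threshold.

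**Figure D4:**
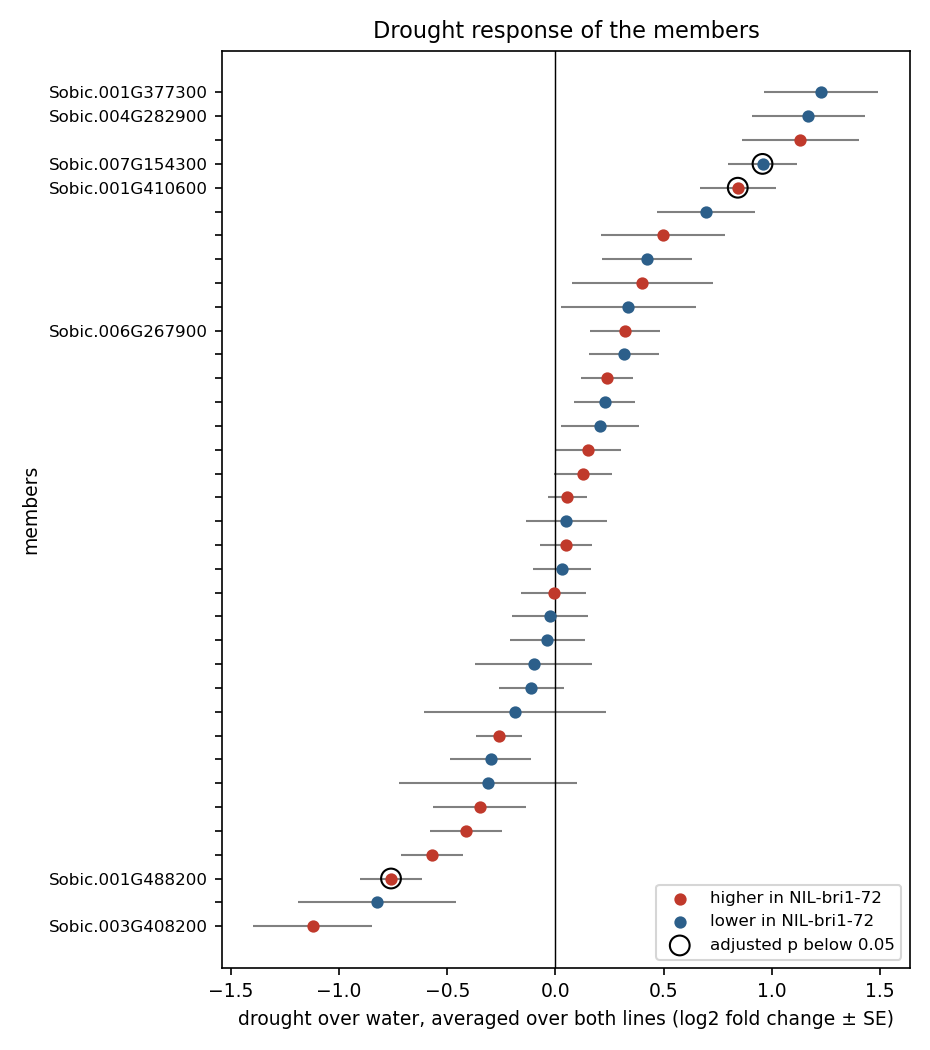
Log2 fold change of drought over water, averaged over both lines, with its standard error, for the 36 members sorted by value (red, higher in NIL-bri1-72; blue, lower). The 3 ringed members passed the edgeR test, and both colours are found on each side of 0.

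In single lines 0 members passed by edgeR. In NIL-bri1-72 10 members had an unadjusted p below 0.05, as did 7.29% of all genes, and the test called 0 genes overall (0.00%). In NIL-WT-72 8 members had one, as did 9.45% of all genes, and 3 genes were called overall (0.0144%). DESeq2 called 8 members for averaged drought, 3 in NIL-bri1-72 and 2 in NIL-WT-72, where its shares of all genes were 4.91%, 0.970% and 1.47%. By limma voom the counts were 2, 0 and 0, where it called 1.40%, 0.00% and 0.00480% of all genes. The edgeR count of 3 for averaged drought became 5 with a replicate block within each line. It was 0 without watered NIL-bri1-72 replicates 1 or 2, droughted replicate 3 of that line or droughted NIL-WT-72 replicates 1 or 2. It was 1 without watered NIL-bri1-72 replicate 3, droughted NIL-bri1-72 replicate 2 or watered NIL-WT-72 replicate 3, and 5 without droughted NIL-bri1-72 replicate 1.

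Droughted and watered libraries did not overlap, on the same side in both lines, for 5 members, 3 above and 2 below, and for 2.80% of all genes. These per-line values share libraries with the line differences that chose the members. The line differences in each regime and the drought changes in each line are given as description. Whether the lines differed in their drought response is not read from them, since the rule keeps genes whose line difference has the same sign in both regimes.

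Members were found on 9 of the 10 chromosomes, as read from the 3 digits that follow the dot of each identifier. Chromosome 3 held 7 members, chromosomes 1 and 4 held 6 each, chromosome 5 held 5 and chromosome 6 held 4. Chromosome 2 held 3, chromosomes 7 and 10 held 2 each and chromosome 9 held 1. Chromosome 8 held 0 of its 1113 genes. As a share of the genes counted, chromosome 5 was highest with 0.442% of 1131 genes and chromosome 9 lowest among those with a member, with 0.0588% of 1701. Chromosomes 3 and 4 had 0.232% and 0.245%, and chromosome 1, with the most genes (3738), had 0.161%. Higher and lower members were mixed on every chromosome with more than 2 members.

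Over all genes, 0.173% were members and 0.711% had non-overlapping lines in both regimes, on the same side. Of the 71 genes directly next to a member in the table, 0 were members and 0 had such non-overlapping lines. At these shares, 71 genes are too few for counts of 0 to show a lack of neighbours. Within 10 counted genes on each side there were 689 neighbours. Of these, 4 were members and 3 others had non-overlapping lines in both regimes, 1.02% together. Whether members lie closer together than other genes was not tested. Pairs of members with fewer than 20 counted genes between them numbered 3. Only the closest pair held members of the same direction. On chromosome 3, Sobic.003G303200 was a higher member and Sobic.003G304600 a lower one. On chromosome 4, Sobic.004G264200 was a lower member and Sobic.004G266100 a higher one.

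The closest pair, Sobic.002G261000 and Sobic.002G261200 on chromosome 2, is named here after its values were seen. Both were lower in NIL-bri1-72. The first had 4.19, 5.51 and 7.04 CPM in NIL-bri1-72 in drought, against 7.15, 10.1 and 13.1 CPM in NIL-WT-72. When watered, it had 2.37, 2.79 and 4.88 CPM in NIL-bri1-72, against 9.40, 8.58 and 10.4 CPM in NIL-WT-72. The lines were widely apart in water, at -1.42, and nearly touched in drought, at -0.79.

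Sobic.002G261200 had the largest water difference of all members, -1.61, and -1.16 in drought. Without watered NIL-WT-72 replicate 1 Sobic.003G141600 was larger in size in water, at -1.57, against -1.26 for Sobic.002G261200. The lowest count of Sobic.002G261200 was 11, and its nearest libraries in water lay 0.08 apart on the log2 scale. It had 1.33, 0.843 and 1.18 CPM in NIL-bri1-72 in drought, against 1.5, 4.48 and 4.19 CPM in NIL-WT-72. When watered, it had 0.691, 0.432 and 2.34 CPM in NIL-bri1-72, against 6.71, 3.59 and 2.50 CPM in NIL-WT-72. The gene counted between them, Sobic.002G261100, is no member. It was also lower in NIL-bri1-72 in water, at 3.69 ± 1.58 CPM against 17.9 ± 15.0 CPM in NIL-WT-72, with no overlap. In drought its lines overlapped, at 6.44 ± 2.64 CPM in NIL-bri1-72 against 9.16 ± 3.81 CPM in NIL-WT-72 (SD, n = 3 each). Whether these 3 neighbouring genes resemble each other in sequence, so that reads could be shared between them, was not tested.

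The members had fewer counts than most genes. Their median over all libraries was 5.02 CPM, against 18.0 CPM for all genes, and 18 of the 36 were under 5 CPM, against 22.1% of all genes. CPM is not corrected for gene length, so this describes how many reads support a gene. Members made up 0.391% of the genes under 5 CPM and 0.111% of those at or above it. A count under 30 in at least 1 library was found for 11 of the 36, and the smallest was 10. Among the 18 members at 5 CPM or more, 6 had an averaged drought change of 0.5 or more in size, where 7.19% of genes at that level did. Among the 18 under 5 CPM it was 4, where 15.9% did.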

How the data were processed

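Libraries were stranded and read from both ends, per the labels. The authors deposited raw counts, 1 whole number per identifier and library. The submitters' processing notes list featureCounts 1.6.2, HISAT2 2.1.0, Trimmomatic 0.38 and FastQC 0.11.2. No source used here names the genome build, the annotation or whether counting used strand, so overlapping, antisense or near-identical genes may share reads. Groups and replicate numbers come from the sample titles, and p-values measure the spread between 3 biological replicates per group.

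Members were chosen by the rule in the text with column sums as library sizes. Counts were also fitted with edgeR 4.0.16 in R 4.3.3 (filterByExpr, which kept 20818 genes, TMM, glmQLFit with 4 group means over 12 libraries, no block), with p-values adjusted by Benjamini-Hochberg over all genes. Fold changes are drought over water. DESeq2 1.42.0, limma voom 3.58.1, other scalings, pseudocounts, limits and left-out libraries were alternatives. Same-numbered libraries across regimes correlated above 0.1 in every pair of NIL-bri1-72 (0.125 to 0.360) and in 2 of 3 pairs of NIL-WT-72. By a bound of 0.1 in every pair, pairing was taken as present in NIL-bri1-72 only. The remaining NIL-WT-72 pair, at 0.0940, lay just under the bound, so this does not set the lines apart. The main fit used no block all the same, and fits with a replicate block were alternatives.

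Named genes are the 2 members per direction with the largest smaller difference among those with at least 10 CPM in 1 group, the 2 with the lowest drought p in each direction of drought, and the genes next to the limit. Members and named-gene rules were chosen with earlier results of these data known. Gene lists written as product names could not be applied without names.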

Additional observations from a re-analysis of the deposited data

How the results depend on the processing

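The 36 members became 46 with a pseudocount of 0.1 CPM, 38 with TMM scaling and 37 with DESeq2 size factors, which held 36, 34 and 32 of them. There were 21 with a pseudocount of 2 CPM, 18 among genes with a mean of at least 5 CPM, 12 at a smallest difference of 0.6, 6 at 0.8 and 148 with none, by construction of the limits. Thinning all libraries to the smallest total, added after seeing the data, gave 41, of which 28 were among the 36. Left-out libraries gave 38 to 94, and 57 without both NIL-WT-72 libraries that stood apart. Genes meeting the rule in opposite directions, 0 in the main setting, numbered 3 with a pseudocount of 0.1 CPM, 14 without a smallest difference, 4 after thinning, 34 without both libraries and 1 to 12 without single ones. The cause was not tested.

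Members called for averaged drought were 3 by edgeR, 8 by DESeq2, 2 with a replicate block over 12 libraries, 5 with a replicate block within each line (added after seeing the data) and 0 to 5 without single libraries. Within NIL-bri1-72 the count of 0 became 3 by DESeq2 and 1 without both libraries, and it was 0 in every fit without 1 library and under both blocks. Within NIL-WT-72 it became 2 by DESeq2, 2 without both libraries and 0 to 1 without single ones. For the line difference over all genes 0 became 32 by DESeq2 and was 0 under every other alternative run. The medians of the members and the shares of genes leaning the same way in the other regime without these libraries were also added after seeing the data. No named line difference changed sign, which the rule fixes in advance for members when libraries are left out. Depth limits the low members most, since 18 of the 36 were under 5 CPM and the smallest member count was 10.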
